A study of Mus musculus with 6 samples.

Results

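Replication-dependent histone genes lie in clusters and are the genes that supply a dividing cell with the histones for its new DNA. They were examined here in peak lists of H3K4me1 (monomethylation of lysine 4 of histone H3) from mouse whisker pads at embryonic day 12. The members were all protein-coding genes of the GENCODE vM21 annotation whose symbol starts with Hist1h, Hist2h, Hist3h or Hist4, without use of any measured value. On the autosomes and X this gave 67 of 21755 protein-coding genes. H3K4me1 was mapped by CUT&Tag, which sequences the DNA fragments cut out by a transposase that is tethered to an antibody on the mark. The 6 samples are freshly isolated primary cells from wild-type pads of strain B6/J2, with the H3K4me1 antibody used on 3 and control IgG on the other 3. Replicates 1, 2 and 3 are the H3K4me1 samples titled with pads 1, 2 and 3. IgG was not analysed here, so the values have no measured background beside them, and conditions could not be compared. A whole pad holds mesenchyme, surface epithelium, nerve and vessel cells, and a peak list does not tell which of these cells carried the mark.

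Most of the source names do not match the titles. Every title gives whisker pad, but 4 samples carry adult kidney as their source, including replicates 2 and 3 of H3K4me1. A gene had a peak where its body, extended by 5 kb at each end, was overlapped by one. Of 12 facial mesenchyme markers, 12, 12 and 11 had a peak in replicates 1, 2 and 3. The same was true of 7, 7 and 3 of 10 surface ectoderm markers and of 3, 3 and 2 of 12 adult kidney markers. By the same rule 24.9, 22.6 and 19.6% of all protein-coding genes had a peak, so the kidney counts were near the share of all genes. The kidney markers with a peak were Slc12a1 of the loop of Henle (percentiles of total signal 57.0, 9.27 and 22.0 within the lists) and Cubn of the proximal tubule (59.8, 54.0 and 66.5) in all replicates. Aqp2 of the collecting duct had one in replicates 1 and 2 (22.7 and 29.8). The other 9 had none, among them the podocyte gene Nphs1 and the loop of Henle gene Umod, and the tissue of replicates 2 and 3 was taken from the titles. The lists held 16788, 12969 and 13998 peaks with median lengths of 2981, 3682 and 3352 bp. The depth of each library is not in the lists, so signals were compared only as ranks within a list or as multiples of its weakest peak.

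Core histones H2A, H2B, H3 and H4 form the protein spool around which DNA is wound, and linker histone H1 binds where the DNA enters and leaves it. The replication-dependent genes for them are transcribed in S phase from a nuclear body that is organised by the coactivator NPAT. Their mRNAs as a rule lack a poly(A) tail and end in a short stem-loop that is bound by the stem-loop binding protein SLBP. H3K4me1 is a mark of enhancers, both active ones and those held ready, and it also lies on the flanks of active promoters.

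The 67 genes comprised 6 for H1, 18 for H2A, 18 for H2B, 12 for H3 and 13 for H4. Of these, 62 had a single exon, and the median gene length was 539 bp. The Hist1 genes on chromosome 13 fell into 4 groups where neighbours more than 100 kb apart were separated. Group 1 held 18 genes from Hist1h2bl to Hist1h2br (GRCm38, chr13:21715763-21837530). Group 2 held 5 genes from Hist1h2ah to Hist1h2bj within 8.51 kb (chr13:22035164-22043676). Group 3 held 29 genes from Hist1h4h to Hist1h1a (chr13:23531050-23764406) and also Hfe, a regulator of iron uptake. Group 4 was the testis-type pair Hist1h2ba and Hist1h2aa. The Hist2 genes were 10 genes on chromosome 3 (chr3:96219865-96270132), Hist3 a pair on chromosome 11 and Hist4h4 a lone gene on chromosome 6. Between Hist1 groups 2 and 3 lay 1487 kb with 40 other protein-coding genes, 36 of them vomeronasal receptor genes.

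The members shared sequence features that their choice by name did not use. A hairpin with a stem of 6 bases that starts with GG and a loop of 4 bases was found within 100 bases after the stop codon of 62 of the 67 genes (92.5%). Among other protein-coding genes 65 of 21513 had one (0.302%). The hairpin began a median of 31 bases after the stop codon (range 21 to 58), and the form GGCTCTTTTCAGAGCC alone was present in 38 genes. All genes for H1, H3 and H4 had the hairpin, as did 17 of 18 for H2A and 14 of 18 for H2B. The 5 without it were Hist1h2an, Hist1h2bp, Hist1h2bq, Hist1h2br and Hist2h2be. For each gene the search began at the stop codon of the transcript with the longest coding sequence. In Hist1h2bp, Hist1h2bq and Hist1h2br that transcript had 2 exons. Stop codons of other transcripts were not searched, so a hairpin after one of them would have been missed. In Hist1h2an and Hist2h2be the transcript had a single exon. The search took only stems without a mismatch and loops of exactly 4 bases, so a less regular hairpin would not have been counted in any gene. The 5 sites below show the 3 commonest forms, at genes that had a peak in at least 1 replicate. The hairpin is in capitals, the sequence is read 5′ to 3′ along the mRNA from the GRCm38 genome, and the coordinates are those of the capitals.
Hist1h2bm, chr13:21722506-21722521, plus strand: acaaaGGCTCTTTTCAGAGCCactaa
Hist1h3h, chr13:21718095-21718110, plus strand: tcaaaGGCTCTTTTCAGAGCCaccca
Hist1h1c, chr13:23739512-23739527, plus strand: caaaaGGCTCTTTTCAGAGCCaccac
Hist1h2bk, chr13:22036300-22036315, plus strand: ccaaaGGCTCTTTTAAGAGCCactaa
Hist1h4k, chr13:21750150-21750165, minus strand: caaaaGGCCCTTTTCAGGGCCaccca

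Promoter letters differed between the families. RefSeq promoters (GRCm38.p6) were matched for 62 of the 67 genes, and the 250 bases before the start were searched on both strands. The CCAAT box, which is bound by the factor NF-Y, was present in 51 of 62 (82.3%) against 33.8% of all 32851 promoters. It was found at 18 of 18 H2A, 16 of 16 H2B and 6 of 6 H1 genes, at 8 of 10 H3 genes and at 3 of 12 H4 genes. The octamer ATTTGCAT, which is bound by POU factors such as POU2F1, was present in 13 (21%) against 1.60%. All of these were H2A (7) or H2B (6) promoters. The TATA box, searched as TATAAA, was present in 29 (46.8%) against 12.4%. The letters AAACACA, known from H1 promoters, were present in 9 (14.5%) against 6.25%, at 5 of 6 H1, 2 H2A and 2 H2B genes. In a divergent pair the 250 bases of one gene can run into its neighbour, so the same letters can count for both genes. A match describes letters and does not show that a factor was bound.

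The promoters printed here are of genes at the peaks described next. They are those of Hist1h2bm and Hist1h2bk, the genes whose start site was covered in all 3 replicates, of Hist1h4k, which lies in the histone peak of highest total signal, and of Hist1h1c, the H1 gene with a peak. Capitals mark the 4 searched motifs on either strand, and each run ends at the base before the RefSeq start.
Hist1h2bm, chr13:21721794-21722043, plus strand: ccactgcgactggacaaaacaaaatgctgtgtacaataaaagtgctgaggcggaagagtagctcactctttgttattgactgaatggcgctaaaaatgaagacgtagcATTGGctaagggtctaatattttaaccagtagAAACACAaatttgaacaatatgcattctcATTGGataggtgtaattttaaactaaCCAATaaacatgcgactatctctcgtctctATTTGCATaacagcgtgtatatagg
Hist1h2bk, chr13:22035571-22035820, plus strand: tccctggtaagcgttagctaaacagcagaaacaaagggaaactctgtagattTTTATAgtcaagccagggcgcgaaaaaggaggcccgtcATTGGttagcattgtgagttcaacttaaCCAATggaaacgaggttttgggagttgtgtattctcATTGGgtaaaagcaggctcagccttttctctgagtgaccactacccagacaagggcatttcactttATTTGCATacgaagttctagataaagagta
Hist1h4k, chr13:21750554-21750803, minus strand: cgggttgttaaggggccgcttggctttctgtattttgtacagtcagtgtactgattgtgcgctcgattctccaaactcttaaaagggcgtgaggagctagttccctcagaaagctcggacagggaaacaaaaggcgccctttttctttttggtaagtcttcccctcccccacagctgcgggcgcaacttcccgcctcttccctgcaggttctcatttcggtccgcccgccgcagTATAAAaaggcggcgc
Hist1h1c, chr13:23738557-23738806, plus strand: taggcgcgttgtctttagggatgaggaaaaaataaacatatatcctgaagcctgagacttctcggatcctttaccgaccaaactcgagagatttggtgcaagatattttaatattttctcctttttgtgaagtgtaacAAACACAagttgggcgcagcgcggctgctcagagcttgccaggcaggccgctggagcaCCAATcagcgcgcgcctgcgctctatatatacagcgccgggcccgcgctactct

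To ask how much of the histone clusters carried H3K4me1, genes with a peak within 5 kb were counted in each replicate. Of the 67 histone genes, 23 had a peak in replicate 1 (34.3%), 19 in replicate 2 (28.4%) and 36 in replicate 3 (53.7%). The mean share was 38.8 ± 13.3% (SD, n = 3). Replicate 3 stood above the other replicates. Of all protein-coding genes, which are mostly longer and so offer a wider target, 24.9, 22.6 and 19.6% had a peak. The nearer comparison is with the 2792 other genes whose length lay between the 5th and 95th percentile of the histone genes, from 382 to 3727 bp. Of these, 14.0, 13.2 and 7.02% had a peak, a mean of 11.4 ± 3.84%. The histone share was higher in 3 of 3 replicates, by 20.3, 15.1 and 46.7 percentage points, a mean of 27.4 ± 16.9. An exact two-sided sign-flip permutation test over the 3 differences gave p = 0.25, the smallest value that 3 replicates allow. Replicate 3 had both the highest histone share and the lowest share of the other short genes, and without it the mean difference was 17.7 points. It was also the replicate with the fewest surface ectoderm markers with a peak (3 of 10), and the part of this in the difference was not tested. Histone neighbours share peaks, and in 16 groups of genes with overlapping windows 7, 5 and 8 held a peak (43.8, 31.2 and 50%). Such a group can be wider than the window of a single gene. These shares have no like background here and cannot be set against those of the other genes.

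**Figure D1:**
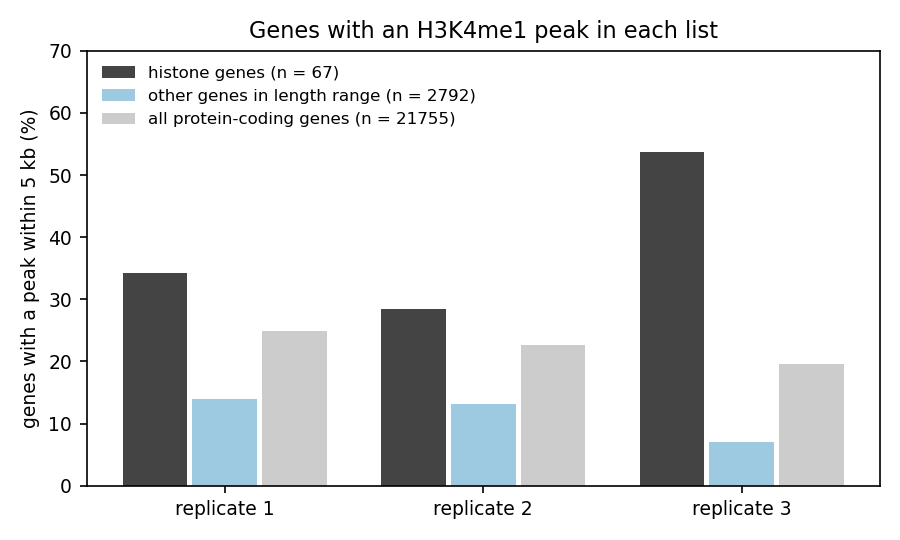
Share of genes with an H3K4me1 peak in the body or the 5 kb on either side (vertical axis, percent) in each of the 3 replicate lists, for histone genes (dark), other genes in their length range (blue) and all protein-coding genes (grey). The dark bar is the tallest in each replicate, at 34.3, 28.4 and 53.7%, and it is furthest above the blue bar in replicate 3.

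The difference depended on weak peaks. With the stronger 50% of each list, 0, 3 and 15 histone genes had a peak, and the difference from genes in the length range was -8.09, -3.29 and 18.3 points, a mean of 2.31. With the strongest 10000 peaks of each list, 0, 8 and 24 histone genes had a peak and the difference was -9.38, 0.586 and 30.4 points. In both cases the sign of the mean rested on replicate 3. Among the 2792 genes were 299 olfactory, vomeronasal and taste receptor genes, 0% of which had a peak in any replicate. Without them the share of the other genes was 15.7, 14.8 and 7.86%.

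Recurrence over the replicates was limited to a few stretches. A peak was present in all 3 replicates at 9 histone genes (13.4%), against 15.5% of all protein-coding genes and 6.20% of genes in the length range, so the share lay between the shares of these backgrounds. It was present in 2 replicates at 18 genes, in 1 at 15 and in none at 25. Every gene with a peak in both replicates 1 and 2 also had one in replicate 3. A further 8 genes were shared by replicates 1 and 3 and 10 by replicates 2 and 3, while 6 had a peak in replicate 1 alone and 9 in replicate 3 alone. Leaving out replicate 1 or 2 thus raised the count of genes with a peak in all remaining replicates from 9 to 19 or 17.

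**Figure D2:**
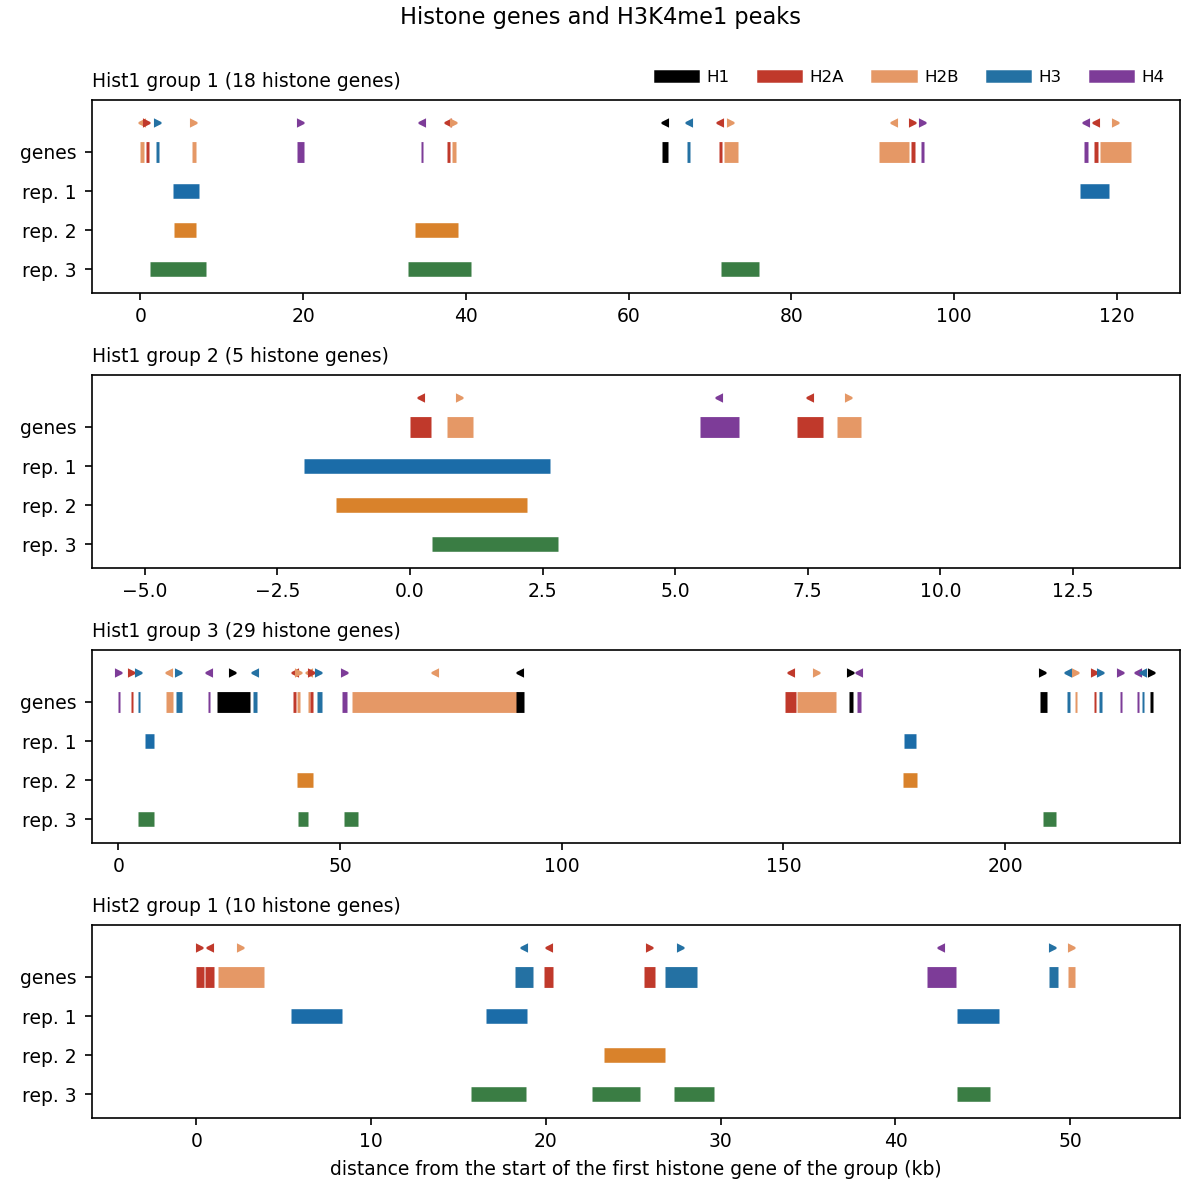
Histone genes (upper track, coloured by family, with arrowheads for the direction of transcription) and H3K4me1 peaks of replicates 1, 2 and 3 (lower tracks) in the 4 groups that held peaks, drawn to scale in kb from the start of the first histone gene. Peaks of all 3 replicates stack at the left of Hist1 groups 1 and 2, whereas those of Hist1 group 3 and Hist2 are in 1 or 2 replicates each.

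The merged peaks formed 14 regions at histone genes, of which 2 were in all 3 replicates, 6 in 2 and 6 in 1. The first region in all replicates (chr13:21716950-21723844) lay at the edge of Hist1 group 1, over Hist1h3h and Hist1h2bm and within 5 kb of Hist1h2bl and Hist1h2ai. Its peak in replicate 1 spanned 3084 bp with a total signal of 17637, the sum of the fragment pileup over its bases, at percentile 19.6 of the list. The peak of replicate 2 spanned 2769 bp at percentile 2.24 (total signal 24723), and that of replicate 3 spanned 6895 bp at percentile 75.1 (58781). By total signal this stretch was near the bottom of the list in replicate 2 and above the median in replicate 3. The longer peak of replicate 3 was below the median by highest pileup (percentile 40.5) and by signal per base (19.6). All 3 peaks covered the H2B gene Hist1h2bm from end to end, and that of replicate 3 also reached the H3 gene Hist1h3h.

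The second region (chr13:22033163-22037959) lay over the divergent pair Hist1h2ah and Hist1h2bk in Hist1 group 2. Its peaks were 4643, 3605 and 2379 bp long in replicates 1, 2 and 3, at percentiles 34.2, 13.2 and 26.9 (total signal 21355, 27522 and 25449). They overlapped the 301 bp between the pair in each replicate. The middle of the highest pileup lay 701, 500 and 522 bp downstream of the start of Hist1h2bk, beyond the end of that gene, so the place of the maximum was alike in the 3 pads. The H4 gene Hist1h4i, 2.68 to 3.27 kb from these peaks, was counted in all replicates. Hist1h2ag lay 4.66, 5.09 and 4.50 kb away, just inside the 5 kb limit in replicates 1 and 3 and just outside in replicate 2. Hist1h2bj, at 5.25 to 5.85 kb, was the gene nearest to a peak among the 25 that had none. In this compact group 31, 25.9 and 27.9% of the bases were under a peak (28.3 ± 2.60%), 1 peak in each replicate. This rested on peaks of the weaker part of each list, since coverage was 0% with the stronger 50% or the strongest 10000 peaks.

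Hist2h3c2 and Hist2h2aa2 on chromosome 3 completed the 9, but through different peaks. Replicates 1 and 3 had a peak over the 3′ part of the H3 gene Hist2h3c2 (chr3:96235558-96238778, percentiles 32.9 and 29.8). The peak of replicate 2 lay beyond Hist2h2aa2 (chr3:96243173-96246672, percentile 8.43), 4.05 kb from Hist2h3c2. Replicate 3 had a second peak there (chr3:96242496-96245217, percentile 27.5), so this stretch was shared by replicates 2 and 3, and that of replicate 2 overlapped the H2A gene Hist2h2aa1. No stretch of the Hist2 cluster was under a peak in all 3 replicates, although each of its 10 genes had a peak in at least 1. Hist2 coverage was 15.2, 6.96 and 20%.

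The histone peak with the highest percentile of total signal was absent from replicate 1. It lay in Hist1 group 1 over Hist1h4k, Hist1h2ak and Hist1h2bn, an H4, an H2A and an H2B gene (chr13:21748712-21756352). In replicate 3 it spanned 7641 bp with a total signal of 67199, or 3.48 times that of the weakest peak of the list, at percentile 79.7. By highest pileup it was at percentile 64.9, below the peak near Hist2h4 (69.5), and by signal per base at 22.8, below the peak near Hist1h2bf (79.9). In replicate 2 it spanned 5316 bp at percentile 55.8 (49970, or 2.06 times the weakest). In replicate 1 the nearest peak to Hist1h2ak was 30.5 kb away. These were also the genes with the highest mean percentile of their families over the replicates that had a peak (67.7 for each). Hist1 group 1 as a whole had 5.48, 6.64 and 15.7% of its bases under a peak.

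Hist1 group 3, the largest, had no gene with a peak in all replicates. Of its 29 genes, 4, 5 and 15 had a peak in replicates 1, 2 and 3, and 2.13, 2.88 and 5.06% of its bases were covered. Replicates 2 and 3 shared a region over Hist1h2bg and Hist1h2bf (chr13:23571317-23574856, percentiles 32.9 and 44.8), with the highest pileup starting at the same base, 23573423, in both. Among the genes counted there was Hist1h3d, the H3 gene with the highest mean percentile (43.5), which also lay near a second peak of replicate 3. Replicates 1 and 3 shared a region near the H3 gene Hist1h3g (chr13:23535563-23539186, percentiles 1.36 and 50.5). A stretch of the span was also marked at a gene that is no histone gene. The highest pileup of a peak fell in Hfe in replicates 1 and 2, at percentiles 21.1 and 15.1. The near edges of these peaks lay 9.50 to 9.71 kb from Hist1h4c, the nearest histone gene. Replicate 3 had no peak there.

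Replicate 3 alone held 4 regions. They lay over Hist1h2an and Hist1h2bp in group 1 (percentile 42.4), over Hist1h4d and the 3′ end of the long gene model Hist1h2be in group 3 (54.0), at Hist1h1c (4.44) and at Hist2h3c1 (16.5). Replicate 1 alone held 2, near Hist2h2be without touching a histone gene (chr3:96225280-96228180, percentile 0.888) and over Hist1h4n, Hist1h2ap and Hist1h2br (chr13:21831261-21834843, percentile 7.48). Hist1h2ba and Hist1h2aa, the Hist3 pair and Hist4h4 had no peak within 5 kb in any replicate. Hist4h4 was 51 to 52.6 kb from the nearest peak and the Hist3 genes 21.6 to 29 kb. The 1487 kb of vomeronasal receptor genes between Hist1 groups 2 and 3 held 1, 1 and 0 peaks.

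Over all spans together, 426 kb from first to last gene of each group, peaks covered 5.15, 4.82 and 10.2% of the bases (6.72 ± 3.01%). Of the sequenced bases of the genome they covered 2.47, 2.32 and 2.23%. The genome value is not matched to the spans for gene density, and no spans of other genes were measured. With the stronger 50% of each list the mean span coverage was 2.08%, and the genome value was not recomputed for that setting.

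By family, counts were lowest for H1, which also had the fewest genes, and no test between the families was made. Of all protein-coding genes 24.9, 22.6 and 19.6% had a peak in replicates 1, 2 and 3. Of the other genes in the length range 14.0, 13.2 and 7.02% had one. With 6 H1 genes, a low count is not told apart from these shares. Of the 6 H1 genes, 0, 0 and 1 had a peak in replicates 1, 2 and 3, the one being Hist1h1c, a linker histone of somatic cells. The other H1 genes, Hist1h1a, Hist1h1b, Hist1h1d, Hist1h1e and the testis gene Hist1h1t, had none. Counts were 8, 7 and 10 of 18 for H2A and 7, 6 and 11 of 18 for H2B. They were 5, 4 and 9 of 12 for H3 and 3, 2 and 5 of 13 for H4. In all 3 replicates a peak was found at 3 H2A, 3 H2B, 2 H3 and 1 H4 gene. Genes of different families alternate within a cluster and share peaks, so these counts are not independent.

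To place the mark relative to the genes, the bodies and start sites were tested for overlap. A peak overlapped the body of 7, 10 and 16 histone genes (10.4, 14.9 and 23.9%, mean 16.4 ± 6.84%), against 9.17, 9.13 and 3.83% of genes in the length range. Replicate 1 was thus close to the share of the other genes by this measure. Its count included 3 genes, Hist1h4n, Hist1h2ap and Hist1h2br, that lay under the same weak peak (percentile 7.48), start sites included. Only 4.59% of the 51-base words of that peak occurred once in the genome, so its place is uncertain. The start site itself lay under a peak at 6, 10 and 8 histone genes (8.96, 14.9 and 11.9%, mean 11.9 ± 2.99%), against 5.31, 6.50 and 2.42% of all protein-coding genes. Hist1h2bm and Hist1h2bk were covered in all 3 replicates and 51 histone genes in none. In the 1 kb before the start site 13.8 ± 3.03% of the bases were under a peak, and in the 1 kb after it 13.3 ± 3.90% (SD, n = 3). Genes in the length range had 4.50 ± 1.97 and 5.25 ± 2.52% there. Between 4 and 5 kb away the histone genes had 9.08 ± 5.32% upstream and 8.56 ± 3.67% downstream. The means fell by an amount close to these SDs, and no test of the slope was made.

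**Figure D3:**
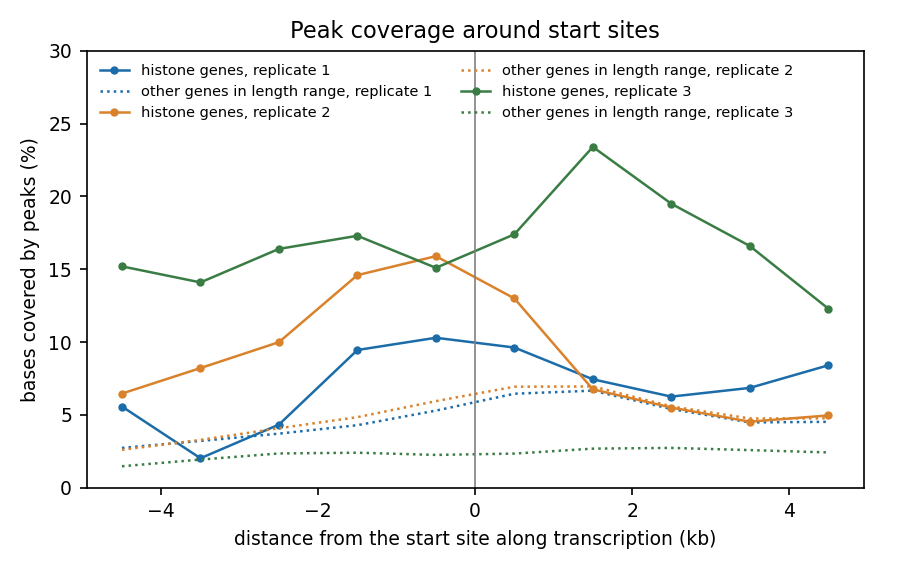
Percent of bases under an H3K4me1 peak (vertical axis) in 1 kb bins from 5 kb before to 5 kb after the start site, along the direction of transcription (horizontal axis), for histone genes (solid lines) and other genes in the length range (dotted) in each replicate. Replicates 1 and 2 are highest in the 1 kb before the start site, at 10.3 and 15.9%, whereas replicate 3 is highest 1 to 2 kb after it, at 23.4%.

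Many of these genes are arranged head to head. Neighbouring start sites on opposite strands less than 1 kb apart formed 13 divergent pairs, 12 of them of an H2A with an H2B gene, with gaps of 175 to 659 bp (median 267). A peak overlapped the gap in 2, 4 and 3 pairs, and Hist1h2ah with Hist1h2bk was the pair marked in all 3 replicates. No share for divergent pairs of other genes stands beside these counts. Hist1h2ak with Hist1h2bn was marked in replicates 2 and 3. The pair at the edge of group 1, Hist1h2bl with Hist1h2ai, was marked in no replicate although a peak lay 0.136 to 3.70 kb from its genes in each.

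Peaks at histone genes were mostly weak ones. There were 7, 5 and 12 of them in replicates 1, 2 and 3, with a mean percentile of total signal of 16.5, 22.5 and 39.9 within their lists, a mean of 26.3 ± 12.1. Of the 24 peaks, 19 ranked below the median of their list, namely 7 of 7, 4 of 5 and 8 of 12. In replicate 1 their total signal was 1.01 to 1.50 times that of the weakest entry, so all 7 lay near the limit of the list. In replicate 2 the range was 1.02 to 2.06 times and in replicate 3 1.04 to 3.48 times. The lists hold no signal for what fell below their limit. A gene without a peak is therefore not shown to lack the mark.

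**Figure D4:**
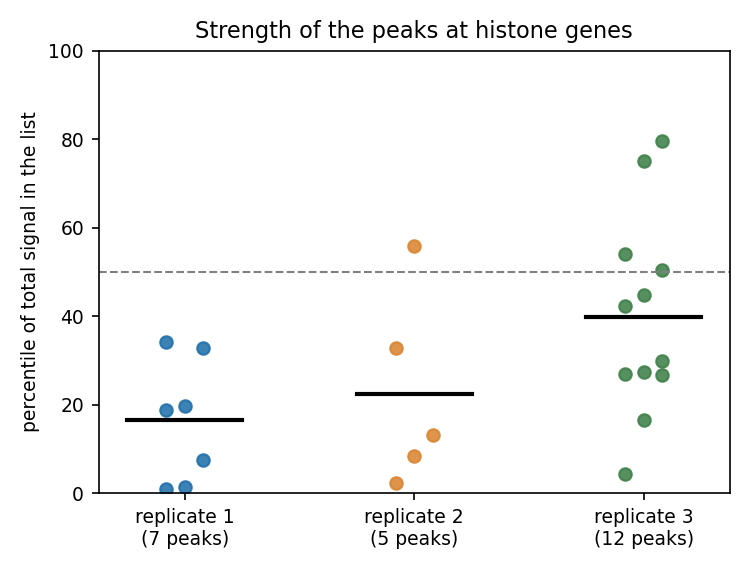
Percentile of total signal within its own list (vertical axis) for each peak within 5 kb of a histone gene (points), by replicate, with the mean as a black line and percentile 50 dashed. The means are 16.5, 22.5 and 39.9, and all 7 peaks of replicate 1 lie below the dashed line.

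Near-identical copies bear on what short reads can show at these genes. Reads were 51 bases long, and how reads with several matching places were treated is not given in the sources used here. Of the 51-base words in a histone gene body, a median of 53.4% occurred once in the genome (range 0 to 100%), against 100% in 89 chromosome 19 genes of the length range. In the windows with 5 kb on either side the median was 91.3% against 96.8%, so the flanks were mostly unique. Median coding identity between members of equal coding length was 96.7% for H2A, 94.7% for H2B, 97.5% for H3 and 93.9% for H4. The coding sequences of Hist1h2bq and Hist1h2br, Hist1h2ao and Hist1h2ap, Hist1h4m and Hist1h4n, and Hist2h2aa1 and Hist2h2aa2 were identical.

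Bodies of the 42 genes with a peak in at least 1 replicate had a median of 47.5% unique words, and those of the 25 without had 71.5%. The region over Hist1h4n, Hist1h2ap and Hist1h2br had 4.59% unique words, the lowest of the 14. The other regions ranged from 70.1 to 100%, and the median over all 14 was 90.5%. The median GC content was 43.5% in the windows of genes with a peak and 43.6% in those without. The medians of all peaks were 48.4, 48.7 and 45.7% GC in replicates 1, 2 and 3, lowest in replicate 3, where the histone share was highest. The part of uniqueness and GC in the counts was not tested.

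**Figure D5:**
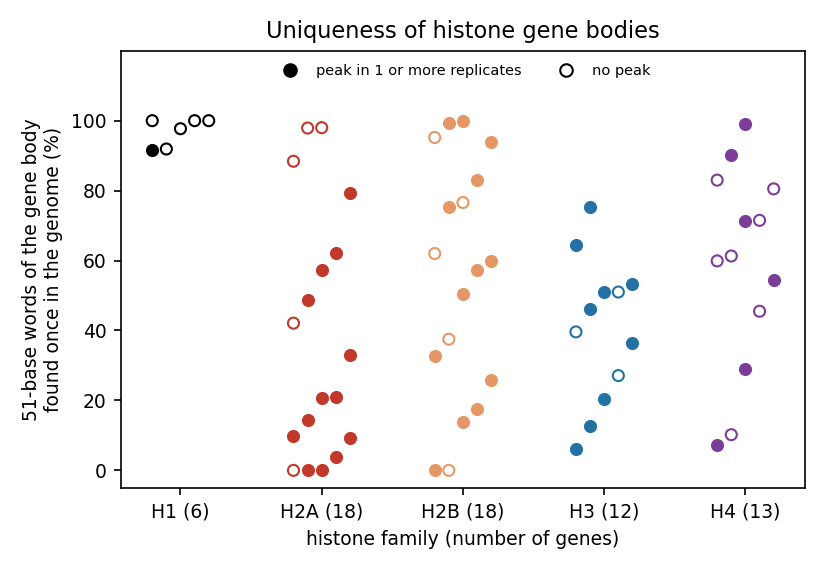
Percent of 51-base words of each histone gene body that occur once in the mouse genome (vertical axis) by family (horizontal axis), with filled points for genes with a peak in 1 or more replicates and open points for genes without. The H1 genes, of which 5 of 6 are open, are all between 91.6 and 100%, whereas the core histone genes spread from 0 to 100%.

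Genes listed here as replication-independent histone genes, whose expression is as a rule not limited to S phase, were set beside the clusters. Of 11 such genes, 2, 3 and 3 had a peak in replicates 1, 2 and 3. H2afy, which encodes macroH2A1, had peaks at percentiles 99.1, 98.8 and 98, above every peak at a replication-dependent gene. H2afy2, for macroH2A2, had peaks at 47.7, 44.7 and 50. The linker histone gene H1f0 had one in replicate 2 (45.6) and the H3.3 gene H3f3a one in replicate 3 (2.61). H1fx, H2afx, H2afz, H2afv, H2afj, H3f3b and Cenpa had none. The part of gene length in these counts was not tested.

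Of 24 genes whose products transcribe, process or chaperone histones, 2, 2 and 4 had a peak (8.33, 8.33 and 16.7%). Srrt, for a partner of the nuclear cap-binding complex, had peaks at percentiles 74.2, 72.0 and 40.0. Upf1, for an RNA helicase that acts in histone mRNA decay, had peaks at 71.3, 59.7 and 6.75. Pou2f1 (22.3) and the H3-H4 chaperone gene Asf1a (25.7) had a peak in replicate 3 alone. The other 20, among them Npat, Slbp and the H4 gene regulator Hinfp, had none in any replicate. Both lists are given as counts, beside the 24.9, 22.6 and 19.6% of all protein-coding genes.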

How the data were processed

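H3K4me1 CUT&Tag was performed by the authors on dissociated pads with 51-base paired-end reads. They called peaks in each replicate with SEACR 1.3 in stringent mode, without IgG, keeping the top 1%. The submitters' processing notes also name Bowtie2 2.3, SAMtools 0.1.19, bedtools and mm10. The treatment of duplicate reads is not given in the sources used here. The deposited signal columns hold the total and the highest fragment pileup of each peak as whole numbers, not scaled to depth.

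Peaks were joined to GENCODE vM21 genes (overlap of at least 1 bp) with Python 3.11.15, numpy 2.4.6 and pandas 2.3.3, and coordinates are 1-based. The scripts were checked on simulated data. With 3 samples of 1 group, the test was an exact two-sided sign-flip permutation test over replicate differences. It can reach no p below 0.25. Nothing says that the pads came from separate litters, so SDs may be partly technical. The members were defined by symbol alone, but this gene set and the lists were chosen with earlier results of these data known. Genes named were members with a peak, by replicate, the member of each family with the highest mean percentile, the unmarked member nearest a peak, genes at the highest pileup within a span, and genes of the lists. Alternatives changed the flank, the peaks kept, the overlap, the comparison genes, the signal measure and the replicates. Identity between the members was computed on coding bases in place of the planned protein comparison, since protein sequences were not used here.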

Additional observations from a re-analysis of the deposited data

How the results depend on the processing

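No paired analysis was possible because control IgG, whose pad numbers would pair with those of H3K4me1, was not analysed here. The 10 results were recomputed for 75 alternative values, of which 52 stayed the same and 23 moved. Same meant within the spread between replicates, for counts within a set ratio of the reported count, and for the tested difference the same sign. Only the tested difference could change sign. Its mean stayed positive in every alternative, but with the stronger 50% it was -8.09 and -3.29 points in replicates 1 and 2. The mean share of histone genes with a peak, 38.8%, was 16.4% for the gene body alone, 60.2% with 20 kb flanks, 8.96% with the stronger 50% of each list, 15.9% with the strongest 10000 peaks and 13.9% with at least 50% of the body covered. The count in all 3 replicates, 9, became 2 for the body alone, 4 with 2 kb, 18 with 20 kb, 0 with the stronger 50% and 0 with the strongest 10000. Span coverage of 6.72% became 2.08% with the stronger 50% and 3.13% with the strongest 10000. The start site share of 11.9% became 21.4% within 1 kb and 3.98% with the stronger 50%. The difference ranged from 2.31 to 41.4 points, and its p was 1.0 with the stronger 50% and 0.75 with the strongest 10000. Wider or narrower windows and shorter lists change counts by construction.

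Leaving out each replicate in turn gave 31.3 to 44% for the share, 17.7 to 33.5 points for the difference, 4.98 to 7.67% for span coverage, 19.5 to 31.2 for the mean percentile and 10.4 to 13.4% for start sites. The count of genes with a peak in all remaining replicates ran from 9 to 19 (chosen after seeing the data). Read depth is unknown, and weak peaks limit what recurrence can show.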
